A study of Rattus norvegicus with 12 samples.

Results

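Coriobacteriia are a class of the phylum Actinobacteriota, and in rat faeces they were represented here by 75 of 7238 bacterial and archaeal amplicon sequence variants (ASVs, exact 16S rRNA gene sequences inferred from the reads). The members were all ASVs whose lineage names the class, and they held 6948 reads, or 0.150% of all reads. They fell into 5 families and 10 groups at genus level, and 7 of these have a genus name. The other 3 are sums of reads without a genus name, written here as "unnamed" with the deepest rank given.

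The study set out to compare the gut bacteria of rats given tetrandrine (Tet), a plant alkaloid, in a model of subarachnoid haemorrhage (SAH), a bleed into the space around the brain. Each of 4 groups had 3 faecal libraries: SAH+Tet+ABX (the haemorrhage model with tetrandrine and ABX, a common short form for antibiotics that the labels do not spell out), SAH+Tet (the model with tetrandrine), SAH (the model alone) and Sham (sham operation). SAH is thus shared by all groups other than Sham, and tetrandrine by both SAH+Tet+ABX and SAH+Tet. A second treatment label, the same for every library, names a cell differentiation protocol that does not match faeces and was not used. Strain, age, sex, doses, the antibiotics and the time of sampling were stated in none of the sources used here. Whether each library is a separate animal is also not stated, so p-values measure only the spread between these libraries.

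Coriobacteriia are anaerobes of the intestine that are known for chemistry on host and plant compounds. Members of Eggerthellaceae, the largest family here, include Adlercreutzia, which converts the soy isoflavone daidzein to equol, Gordonibacter, which converts ellagic acid from fruit and nuts to urolithins, and Enterorhabdus, described from the rodent intestine. Collinsella, of the family Coriobacteriaceae, carries enzymes that deconjugate and oxidise bile acids. Sequencing of a marker gene gives the share of each taxon and does not measure any of these activities.

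Library totals ranged from 211450 to 531426 reads. SAH+Tet+ABX 1, 2 and 3, SAH+Tet 3 and SAH 1 had under 300000 reads each, and the other 7 libraries had more. This lower depth class holds every SAH+Tet+ABX library and no Sham library. With 0 reads of a taxon, its share may still reach 0.00142% (3 reads) in a library of 211450 reads, and 0.000565% in one of 531426 reads. These limits and all counting intervals cover counting error only, since PCR copies are not independent molecules.

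The summed share of Coriobacteriia was 0.0563%, 0.144% and 0.114% in SAH+Tet+ABX libraries 1, 2 and 3. It was 0.149%, 0.107% and 0.0941% in SAH+Tet, 0.0729%, 0.175% and 0.184% in SAH, and 0.152%, 0.252% and 0.157% in Sham. All groups overlapped except that each Sham library lay above each SAH+Tet and SAH+Tet+ABX library. Exact 95% intervals (Clopper-Pearson) ran from 0.0466% to 0.0673% in the lowest library, SAH+Tet+ABX 1, and from 0.238% to 0.267% in the highest, Sham 2.

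The class as a whole did not pass the test over the 4 groups. Means were 0.105 ± 0.0448% in SAH+Tet+ABX, 0.117 ± 0.0285% in SAH+Tet, 0.144 ± 0.0617% in SAH and 0.187 ± 0.0564% in Sham (SD, n = 3 each). An exact permutation test of the F statistic of log10(percent + 0.001) gave p = 0.355, or 0.449 after Benjamini-Hochberg adjustment over 24 classes, of which 50.0% passed 0.05. Between pairs of groups, the difference in mean log10 share was -0.0680 for SAH+Tet+ABX against SAH+Tet (two-sided exact permutation p = 0.8), -0.0651 for SAH+Tet against SAH (exact p = 0.8) and -0.135 for SAH against Sham (exact p = 0.6). A pair of groups of 3 libraries cannot go below an exact p of 0.1. SAH 1, the one SAH library of the lower depth class, had the lowest share of its group, and without it the difference of SAH from Sham was -0.00589.

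**Figure D1:**
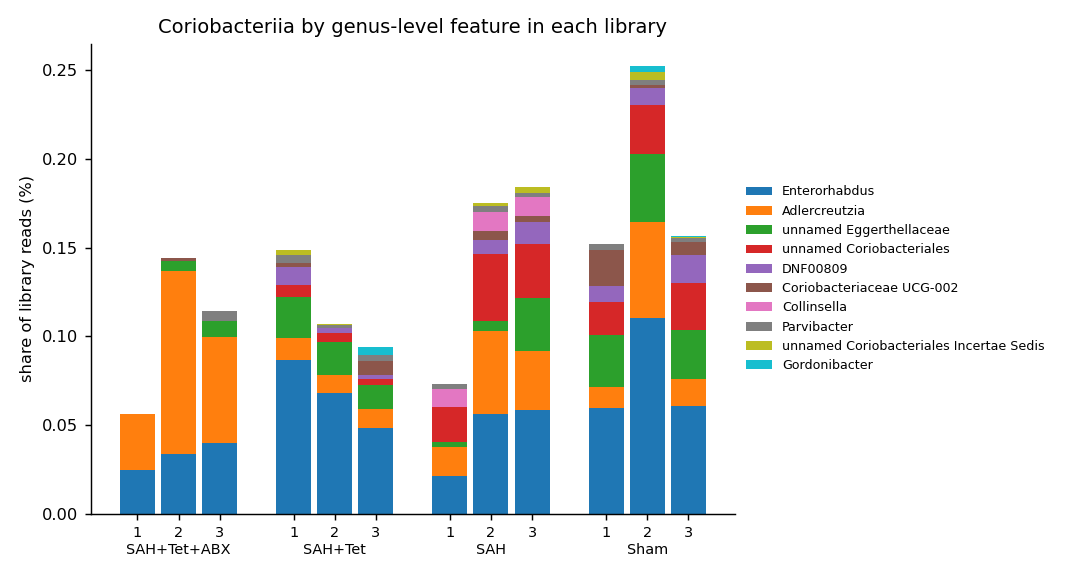
Share of library reads (%) taken by each of the 10 genus-level features of Coriobacteriia, stacked, in the 3 libraries of each group. Adlercreutzia makes up at least 52.5% of the bar in each SAH+Tet+ABX library, Enterorhabdus at least 51.4% in each SAH+Tet library, and Collinsella appears in the SAH bars alone.

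The make-up of the class differed more than its sum. Adlercreutzia took 60.0 ± 9.94% of the Coriobacteriia reads in SAH+Tet+ABX, against 9.61 ± 1.46% in SAH+Tet, 22.3 ± 4.32% in SAH and 13.0 ± 7.45% in Sham (SD, n = 3 each). Enterorhabdus took 33.9 ± 10.2% in SAH+Tet+ABX, 57.8 ± 6.19% in SAH+Tet, 31.1 ± 1.57% in SAH and 40.6 ± 2.72% in Sham. Both sets of percentages describe parts of one sum, so a higher part for one genus lowers the others.

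Eggerthellaceae held 4 of the 5 most abundant features. Enterorhabdus was the most abundant, with 43 ASVs and a mean share of 0.0557% over the 12 libraries. Its share was 0.0246%, 0.0337% and 0.0396% in SAH+Tet+ABX libraries 1, 2 and 3, 0.0865%, 0.0681% and 0.0484% in SAH+Tet, 0.0213%, 0.0563% and 0.0586% in SAH, and 0.0597%, 0.110% and 0.0610% in Sham. Every SAH+Tet+ABX library was below every SAH+Tet library, every SAH library was below every Sham library, and SAH+Tet overlapped SAH. None of these differences passed in edgeR, a count model fitted over all genera. The log2 fold change was -0.89 (SE 0.61, adjusted p = 0.250) for SAH+Tet+ABX against SAH+Tet, 0.35 (SE 0.56, adjusted p = 0.807) for SAH+Tet against SAH, and -0.44 (SE 0.56, adjusted p = 0.619) for SAH against Sham. On the centred log-ratio scale (limma) the first of these was 1.29, with the opposite sign.

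Adlercreutzia, the equol producer, had 4 ASVs and a mean share of 0.0337%. Its share was 0.0317%, 0.103% and 0.0600% in SAH+Tet+ABX libraries 1, 2 and 3, 0.0124%, 0.00987% and 0.0106% in SAH+Tet, 0.0161%, 0.0467% and 0.0332% in SAH, and 0.0119%, 0.0544% and 0.0152% in Sham. The SAH+Tet libraries lay within a narrow range, and all 3 were below every SAH and every SAH+Tet+ABX library. The genus was higher in SAH+Tet+ABX, at 0.0649 ± 0.0359% against 0.0110 ± 0.00133% in SAH+Tet (SD, n = 3 each), with a log2 fold change of 2.71 (SE 0.79) and an adjusted p of 0.0240 by edgeR's quasi-likelihood test.

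The median log2 fold change of all 196 genera tested in that comparison was -1.65. That median depended on the fit. Over the same 196 genera it was -1.75 with scaling by library size alone and -1.18 with DESeq2 size factors. With depth class as a block it was -0.54, and on the centred log-ratio scale -0.06. In the fit of only these groups it was -0.28 over 137 genera, and within the lower depth class 0.37 over 105. Fewer genera met the count minimum in those fits, so their medians also differ in the genera covered. The log2 fold change of Adlercreutzia was at least 2.19 in each of 15 alternatives. Its adjusted p ranged from 4.38e-05 to 0.815 over them and was past the threshold in 10. The call was lost without SAH+Tet+ABX 2, without SAH+Tet 1, without SAH+Tet 2, with no filter on low counts and within the lower depth class, where SAH+Tet 3 is the only library to compare with. That library had 0.0106% Adlercreutzia, below all 3 SAH+Tet+ABX libraries at a like depth.

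For SAH+Tet against SAH, Adlercreutzia had a log2 fold change of -1.83 (SE 0.70). The groups did not overlap, but the adjusted p was 0.204 and the comparison was not called. For SAH against Sham the log2 fold change was 0.61 (SE 0.68, adjusted p = 0.595), with overlapping groups. Over the 4 groups at once the exact permutation p was 0.0503, or 0.103 adjusted over 196 genera.

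A single ASV carried the high level of the genus in the libraries with antibiotics. Adlercreutzia ASV 1 had 67, 241 and 147 reads in SAH+Tet+ABX, which were all of the genus's reads there. It had 30, 41 and 24 reads in SAH+Tet, 40, 94 and 0 in SAH, and 59, 241 and 72 in Sham. SAH 3 thus had 0 reads of the ASV that led the genus in all 3 libraries of each other group. Its 149 Adlercreutzia reads came from ASVs 2, 3 and 4, with 60, 73 and 16 reads. Tested alone by edgeR in SAH+Tet+ABX against SAH+Tet, Adlercreutzia ASV 1 had a log2 fold change of 2.19 (SE 1.70, adjusted p = 0.301). It was not called there or in any of 15 alternatives, unlike the genus.

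ASVs 3 and 4 of Adlercreutzia, named here after their values were seen, had reads in SAH 2 and SAH 3 and in no other library. ASV 3 had 63 and 73 reads there, and ASV 4 had 24 and 16. In SAH, these ASVs held 40.3% of the reads of the genus.

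**Figure D2:**
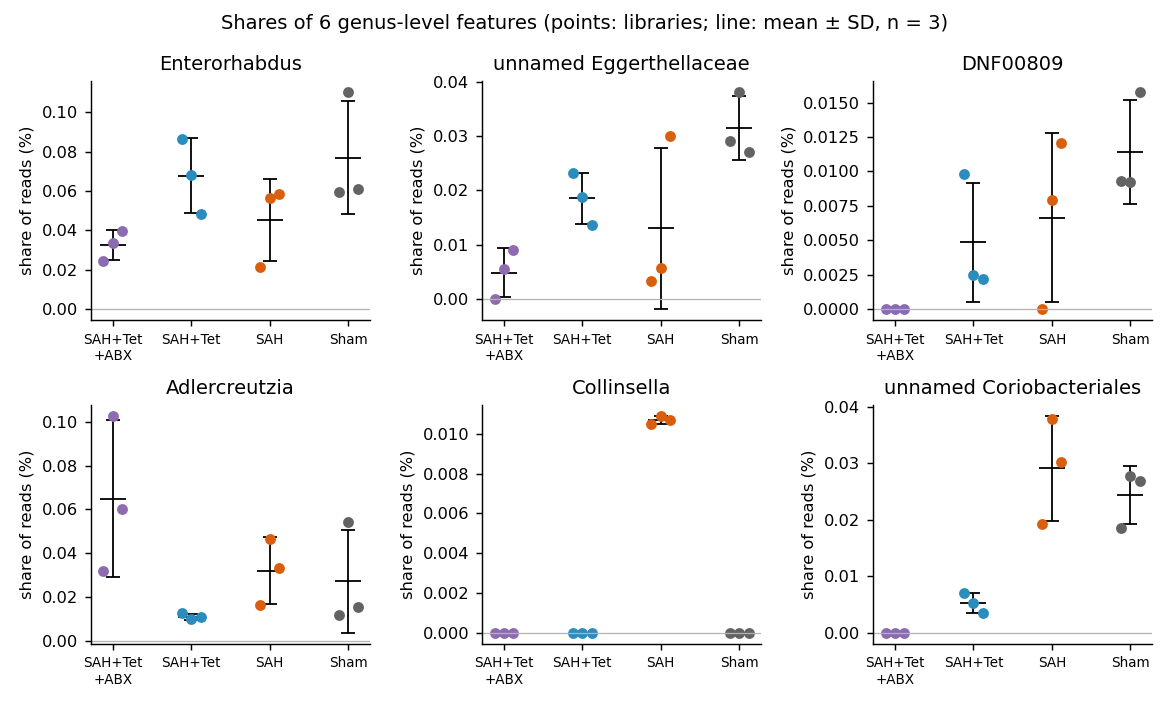
Share of library reads (%) of 6 genus-level features by group (points are the libraries, horizontal marks and bars the mean and SD, n = 3). Adlercreutzia has its highest mean in SAH+Tet+ABX, whose libraries overlap those of SAH and Sham, and lies in a narrow range near 0.0110% in SAH+Tet. Unnamed Coriobacteriales fall to 0 in SAH+Tet+ABX and Collinsella is seen in SAH alone.

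Of the remaining Eggerthellaceae, DNF00809 was the one to pass a test. Unnamed Eggerthellaceae (12 ASVs) had shares of 0%, 0.00555% and 0.00898% in SAH+Tet+ABX, 0.0231%, 0.0188% and 0.0136% in SAH+Tet, 0.00322%, 0.00565% and 0.0301% in SAH, and 0.0290%, 0.0381% and 0.0271% in Sham. SAH+Tet+ABX lay below SAH+Tet without overlap, yet the log2 fold change of -1.73 (SE 1.22) had an adjusted p of 0.265. SAH 1 and SAH 2 were below all SAH+Tet and Sham libraries, SAH 3 lay within the Sham range, and neither other comparison was called (adjusted p = 0.839 for SAH+Tet against SAH and 0.406 for SAH against Sham).

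DNF00809, a genus known by a database name only, had 0 reads in all 3 SAH+Tet+ABX libraries. It had 45, 13 and 5 reads in SAH+Tet (0.00983%, 0.00252% and 0.00220%), 0, 42 and 54 reads in SAH (0%, 0.00790% and 0.0120%), and 46, 46 and 82 reads in Sham (0.00928%, 0.00923% and 0.0158%). It fell at least 3.70-fold in SAH+Tet+ABX against SAH+Tet, with absent reads set to 3 per library, and edgeR gave an adjusted p of 0.0297. Of the 13 alternatives in which DNF00809 was tested, 6 kept this call (adjusted p from 0.00659 to 0.196). Among others it was lost without SAH+Tet+ABX 1, without SAH+Tet+ABX 2, without SAH+Tet+ABX 3, without SAH+Tet 1, with depth class as a block and in limma. DNF00809 was under the count minimum in the fits of only these groups and of only the lower depth class. In SAH+Tet 3, the SAH+Tet library of like depth, the genus rested on 5 reads. SAH 1, also of the lower depth class and without antibiotics, had 0 reads of it.

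Parvibacter, first cultured from the mouse caecum, had a mean share of 0.00265% and reads in 10 of 12 libraries. Its group means were 0.00191% in SAH+Tet+ABX, where 1 library held all 14 reads, 0.00328% in SAH+Tet, 0.00248% in SAH and 0.00292% in Sham, and no comparison was called. Gordonibacter, the urolithin producer, had 0 reads in SAH+Tet+ABX, 10 reads in SAH+Tet 3, 0 in SAH, and 16 and 3 reads in Sham 2 and Sham 3. It did not reach the count minimum for testing.

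Outside Eggerthellaceae, the order Coriobacteriales without a family name held the one feature of the class that passed over the 4 groups at once. These unnamed Coriobacteriales, 2 ASVs, had 0 reads in each SAH+Tet+ABX library. They had 32, 27 and 8 reads in SAH+Tet (0.00699%, 0.00522% and 0.00352%), 48, 201 and 136 in SAH (0.0193%, 0.0378% and 0.0303%), and 92, 138 and 140 in Sham (0.0186%, 0.0277% and 0.0269%). The groups formed 3 levels without overlap: SAH and Sham together at the top, SAH+Tet below every library of both, and SAH+Tet+ABX at 0.

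The exact permutation test over the 4 groups gave p = 0.000325 for unnamed Coriobacteriales, where the smallest p the design allows is 6.49e-05. The adjusted p was 0.0111 over 196 genera. This was 1 of 9 tested genus-level features of the class to pass, against 26.0% of all genera. Counted as a family it had an adjusted p of 0.0136, 1 of 5 families of the class, against 25.8% of 93 families. The call at genus level held in 17 of 19 alternatives (adjusted p from 0.00955 to 0.168), among them permutation within depth class. It was lost with the 3 SAH+Tet+ABX libraries left out and in 1 other alternative.

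In the pairwise fits, unnamed Coriobacteriales fell at least 4.01-fold in SAH+Tet+ABX against SAH+Tet, with an adjusted p of 0.000792 by edgeR. The call held in each of the 13 alternatives in which it was tested (adjusted p from 6.32e-05 to 0.0205). It was not tested in the fits of only these groups and of only the lower depth class, where it was under the count minimum. SAH+Tet 3, at a depth like that of the libraries with antibiotics, had 8 reads at 0.00352%, while a count of 0 allows between 0.00123% and 0.00142% in those libraries. The exact 95% interval of SAH+Tet 3, from 0.00152% to 0.00693%, overlaps those of SAH+Tet+ABX 1 and 2, which reach 0.00174% and 0.00158%. That of SAH+Tet+ABX 3 reaches 0.00151%.

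For SAH+Tet against SAH, unnamed Coriobacteriales had a log2 fold change of -2.72 (SE 0.52), with means of 0.00524 ± 0.00173% in SAH+Tet and 0.0292 ± 0.00930% in SAH (SD, n = 3 each). The unadjusted p was 0.000852 and the adjusted p 0.107, so the difference was not called by edgeR. DESeq2 called it, the only one of 15 alternatives to do so (adjusted p from 1.29e-10 to 0.261). For SAH against Sham the log2 fold change was 0.62 (SE 0.49, adjusted p = 0.464).

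Collinsella, the bile acid genus, was seen in SAH and nowhere else. It consists of 1 ASV, and it is described because the members were to be summed by this genus, although its mean share of 0.00267% is below the minimum of 0.005% set for description. SAH 1, 2 and 3 had 26, 58 and 48 reads, or 0.0105%, 0.0109% and 0.0107%, and the other 9 libraries had 0. The exact 95% intervals of the SAH libraries ran from 0.00684% to 0.0153%, from 0.00829% to 0.0141% and from 0.00789% to 0.0142%. The groups did not overlap, and the spread within SAH (SD 0.000221%, n = 3) was well under the counting error of each library.

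Against the floor of 3 reads per library, Collinsella was at least 18.0-fold more abundant in SAH than in Sham and at least 12.6-fold less abundant in SAH+Tet than in SAH. These bounds are a description. Collinsella met the count minimum only through SAH, the one group that holds its reads, so no p-value or call is given for it here as support, and it is named below where it is among the members counted. EdgeR called neither difference.

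Such a pattern, with reads in all 3 libraries of SAH and in no library of another group, was shared by 30 of the 7238 ASVs. Collinsella ASV 1 had the lowest coefficient of variation of the 30, at 2.07%, against a median of 64.1%. The same pattern for SAH+Tet+ABX held for 31 ASVs, of which 1 was a member (Enterorhabdus ASV 5). For SAH+Tet it held for 41 and for Sham for 131, with 0 members in either.

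The 2 other features were low. Coriobacteriaceae UCG-002, placed in the family Atopobiaceae in these files, had group means of 0.000712% in SAH+Tet+ABX, 0.00344% in SAH+Tet, 0.00296% in SAH and 0.00970% in Sham, with 100 of its 146 Sham reads in Sham 1. Unnamed Coriobacteriales Incertae Sedis had 0 reads in SAH+Tet+ABX and at most 22 reads in any other library. Neither was called in any comparison.

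**Figure D3:**
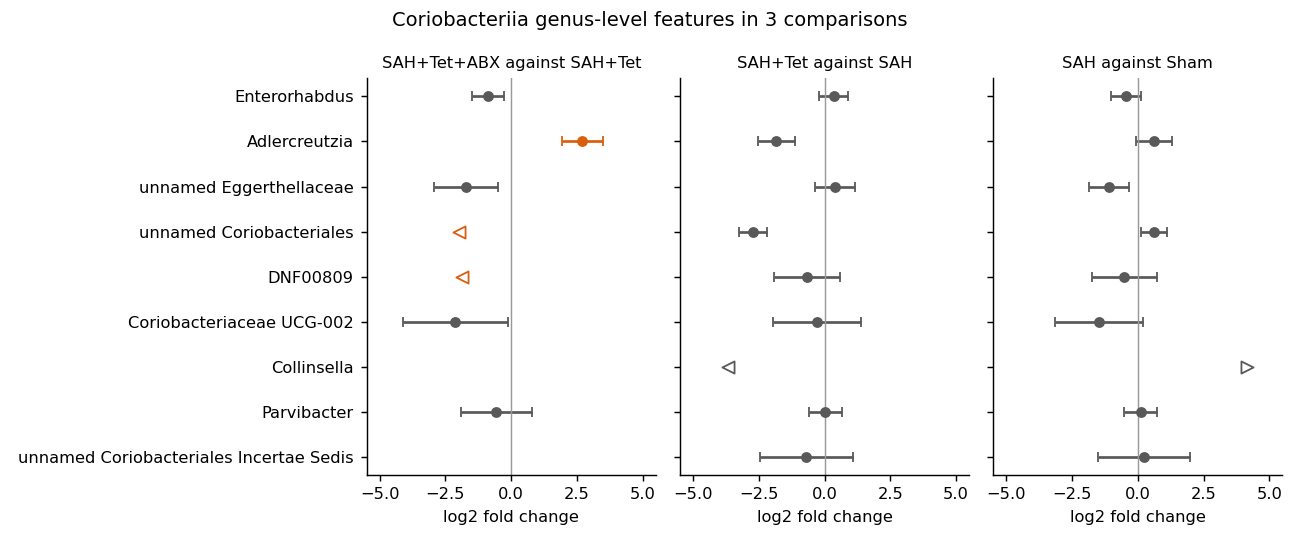
Log2 fold changes of the 9 tested genus-level features in SAH+Tet+ABX against SAH+Tet, SAH+Tet against SAH and SAH against Sham (points with SE bars from edgeR; open triangles are lower bounds where a group has 0 reads; orange marks an adjusted p under 0.05; no mark where reads were 0 in both groups or too few for a bound). Orange marks appear in the first panel alone, for Adlercreutzia, unnamed Coriobacteriales and DNF00809.

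Counted over the class, edgeR called 3 of 9 tested features in SAH+Tet+ABX against SAH+Tet, 1 higher and 2 lower, where 37.2% of all 196 genera were called, 9.18% higher and 28.1% lower. Groups did not overlap for 5 of 9, against 41.8% of all genera, and the median log2 fold change was -1.73 for the members and -1.65 for all. The share called is near that of the table, and 1 higher and 4 lower among the 5 compare with 9.69% and 32.1% of all genera. DESeq2 also called 3 members, against 53.6% of all genera, and limma called 3, against 37.8%, of which Collinsella had 0 reads in both groups. At an unadjusted p under 0.05, edgeR gave the same count of 3, against 50.5%.

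In SAH+Tet against SAH, edgeR called 0 of 9 members and 0% of 188 genera. At an unadjusted p under 0.05 there were 3 members, all lower, against 19.7% of all genera in either direction and 14.4% in the lower one. Groups did not overlap for the same 3 (Adlercreutzia, unnamed Coriobacteriales and Collinsella), all lower in SAH+Tet, against 23.4% of genera in either direction and 10.6% in the lower one. DESeq2 called 2 members, against 16.0% of all genera, and limma 1, against 0.532%. Collinsella is among the members in each of these counts above 0 and met the count minimum only through SAH. Because this comparison shares the SAH libraries with that of SAH against Sham, their fold changes are given side by side and not set against each other.

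In SAH against Sham, edgeR called 0 of 9 members and 0% of 188 genera, with 1 member at an unadjusted p under 0.05, against 29.3% of all genera. Groups did not overlap for 2 of 9 (Collinsella higher, Enterorhabdus lower), against 35.1% of all genera. DESeq2 and limma each called 1 member, against 25.5% and 4.79% of all genera. In each of these counts of 1 the member is Collinsella, which met the count minimum only through SAH.

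At the level of single ASVs, 20 of the 75 had at least 100 reads and together held 79.8% of the reads of the class. No ASV was seen in all 12 libraries, and 29 were seen in 1 library only. Of the 75, 13 were seen in SAH+Tet+ABX, 39 in SAH+Tet, 40 in SAH and 47 in Sham, and 6 were seen in all 4 groups. Of all 7238 ASVs of the table, 1101 were seen in SAH+Tet+ABX, 3909 in SAH+Tet, 3190 in SAH and 3763 in Sham. In Sham, 23 ASVs of the class were present in all 3 libraries, against 2 in SAH+Tet+ABX and 7 each in SAH+Tet and SAH. The like count over all ASVs is not given here.

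In the libraries with antibiotics, Enterorhabdus was made up mostly of ASVs not seen elsewhere. It was seen there as 7 ASVs. Of its 228 reads in SAH+Tet+ABX, 79.8% belonged to 5 ASVs that were seen in no other group. The same measure was 9.56% of 858 reads in SAH+Tet, 6.83% of 615 in SAH and 10.1% of 1163 in Sham. Over the whole table, ASVs seen in no other group held 12.7% of the reads in SAH+Tet+ABX, 6.91% in SAH+Tet, 6.33% in SAH and 4.93% in Sham.

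The 4 Enterorhabdus ASVs of highest mean share had 0 reads in every SAH+Tet+ABX library. A strong fall was common in the table. The median edgeR log2 fold change in SAH+Tet+ABX against SAH+Tet was -6.61 over all 2394 tested ASVs and -5.19 over the 25 tested members. With depth class as a block these medians were -0.79 and 0.22. Enterorhabdus ASV 1 had 41, 20 and 75 reads in SAH+Tet, 10, 46 and 29 in SAH, and 28, 92 and 73 in Sham. Enterorhabdus ASV 2 had 39, 48 and 19 reads in SAH+Tet, 11, 51 and 63 in SAH, and 76, 86 and 51 in Sham. Both were present in all 9 libraries without antibiotics.

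Enterorhabdus ASV 3 had 171, 149 and 0 reads in SAH+Tet, 0, 24 and 14 in SAH, and 6, 27 and 6 in Sham, so that it was high in the SAH+Tet libraries of greater depth and absent from the other. Enterorhabdus ASV 4 had 30, 15 and 0 reads in SAH+Tet, 23, 39 and 38 in SAH, and 17, 47 and 10 in Sham. Unnamed Eggerthellaceae ASV 1 had 0, 0 and 15 reads in SAH+Tet+ABX, 66, 57 and 31 in SAH+Tet, 8, 0 and 50 in SAH, and 43, 76 and 45 in Sham.

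Unnamed Coriobacteriales ASV 1 carried most of the reads of its feature, with 0 in SAH+Tet+ABX, 32, 20 and 8 in SAH+Tet, 48, 179 and 125 in SAH, and 84, 130 and 140 in Sham. Coriobacteriaceae UCG-002 ASV 1 had 0, 5 and 0 reads in SAH+Tet+ABX, 11, 0 and 16 in SAH+Tet, 0, 27 and 17 in SAH, and 100, 10 and 36 in Sham. With Adlercreutzia ASV 1 these are the 8 ASVs of highest mean share, which held 56.3% of the reads of the class.

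EdgeR called 4 of the 25 tested Coriobacteriia ASVs in SAH+Tet+ABX against SAH+Tet, all lower, against 10.3% of all 2394 ASVs in either direction and 9.73% in the lower one. All 4 had 0 reads in SAH+Tet+ABX. Enterorhabdus ASV 1 fell at least 11.7-fold (adjusted p = 0.0209), Enterorhabdus ASV 2 at least 6.67-fold (adjusted p = 0.0198), unnamed Coriobacteriales ASV 1 at least 3.66-fold (adjusted p = 0.0237) and Enterorhabdus ASV 10 at least 2.24-fold (adjusted p = 0.0316). Enterorhabdus ASV 10 had 19, 8 and 7 reads in SAH+Tet, 4, 12 and 13 in SAH, and 19, 8 and 5 in Sham. The count of 4 became 0 without SAH+Tet+ABX 1, without SAH+Tet+ABX 2 and without SAH+Tet+ABX 3, and 9 without SAH+Tet 3. DESeq2 called 5 members, against 37.0% of all ASVs, and limma 1, against 9.77%. The 1 member called by limma was Enterorhabdus ASV 5, which met the count minimum only through SAH+Tet+ABX, and limma called none of the 4. At an unadjusted p under 0.05, edgeR gave 14, against 52.8%.

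Enterorhabdus ASV 5, named here after its values were seen, had 43, 15 and 48 reads in SAH+Tet+ABX and 0 in the other 9 libraries. Against the floor of 3 reads per library it was at least 18.1-fold more abundant in SAH+Tet+ABX than in SAH+Tet, which is a description, since it met the count minimum only through SAH+Tet+ABX. Enterorhabdus ASV 12 had 23 reads each in SAH+Tet+ABX 2 and 3 and none elsewhere.

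**Figure D4:**
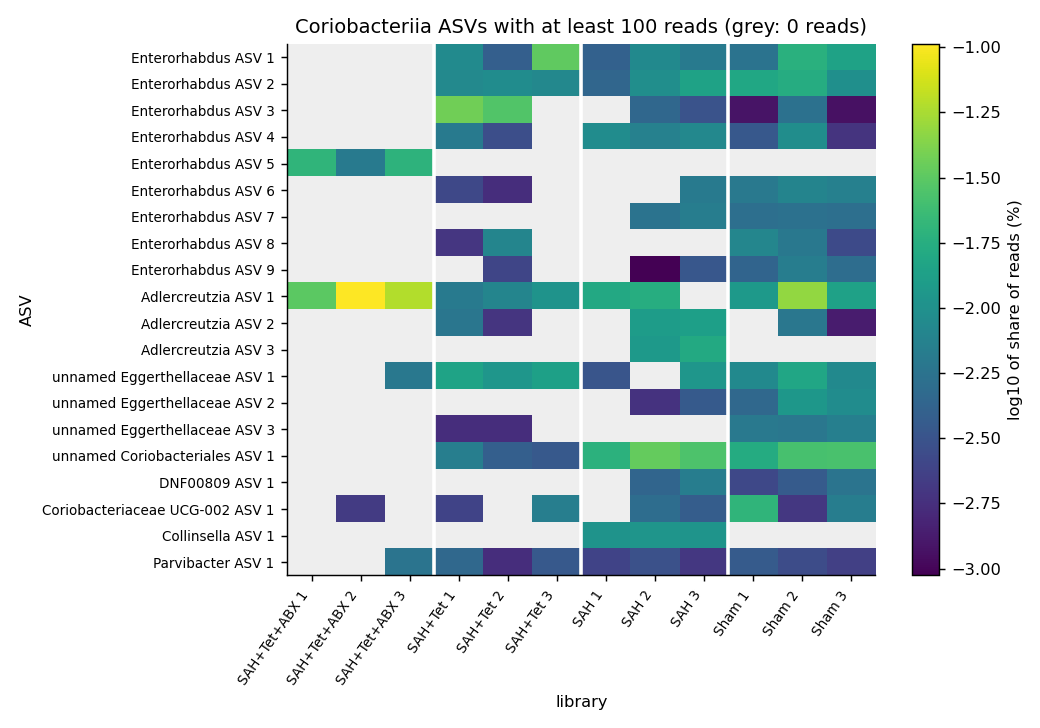
Share of library reads (log10 of percent) of the 20 Coriobacteriia ASVs with at least 100 reads, one row for each ASV and one column for each library, with 0 reads in grey. Enterorhabdus ASVs 1 to 4 and unnamed Coriobacteriales ASV 1 are grey in all SAH+Tet+ABX columns, where Adlercreutzia ASV 1 and Enterorhabdus ASV 5 are filled.

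In SAH+Tet against SAH, edgeR called 0 of 23 tested ASVs of the class and 0% of 2283 ASVs, with 8 members at an unadjusted p under 0.05, against 20.8% of all. DESeq2 called 4 members, against 13.1%, and limma 1, against 4.91%. In SAH against Sham, edgeR called 0 of 23 and 0%, with 4 members at an unadjusted p under 0.05, against 24.2%. DESeq2 called 3, against 17.8%, and limma 2, against 11.8%. Collinsella ASV 1, which met the count minimum only through SAH, is among the members in each of these counts above 0. It is the 1 member that limma called in SAH+Tet against SAH. The other members that DESeq2 called in SAH against Sham, named here after their values were seen, were Enterorhabdus ASV 8 and unnamed Eggerthellaceae ASV 3. Unnamed Eggerthellaceae ASV 3 was also the other member that limma called. Each of these ASVs had 0 reads in SAH and reads in all 3 Sham libraries, and their calls are not given as support.

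The number of Coriobacteriia ASVs expected at a common depth of 211450 reads was 3, 9.97 and 7 in SAH+Tet+ABX, 28.3, 26.3 and 12.0 in SAH+Tet, 10.0, 28.9 and 29.0 in SAH, and 32.4, 38.3 and 30.9 in Sham. Every Sham library was above every library of the other groups, and every SAH+Tet+ABX library was below all others, the highest of them just under SAH 1. Means were 6.66 ± 3.50 in SAH+Tet+ABX, 22.2 ± 8.90 in SAH+Tet, 22.6 ± 10.9 in SAH and 33.9 ± 3.91 in Sham (SD, n = 3 each), with an exact permutation p of 0.0291 over the 4 groups. It was 0.229 without the SAH+Tet+ABX group, and between 0.0570 and 0.0804 when any one of that group's libraries was left out.

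Richness moved with depth class. SAH+Tet 3 and SAH 1, the libraries of the lower depth class in their groups, had 12.0 and 10.0 expected ASVs at the common depth, against 26.3 to 29.0 in the other SAH+Tet and SAH libraries. An exact permutation within depth class gave p = 0.00333, and the part of depth in the result was not tested further. Coriobacteriia made up 1.11 ± 0.416% of all ASVs expected at that depth in SAH+Tet+ABX, 1.05 ± 0.127% in SAH+Tet, 1.23 ± 0.330% in SAH and 1.49 ± 0.206% in Sham (SD, n = 3 each). Total richness was 573 ± 117 ASVs in SAH+Tet+ABX and 2271 ± 61.9 in Sham.

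**Figure D5:**
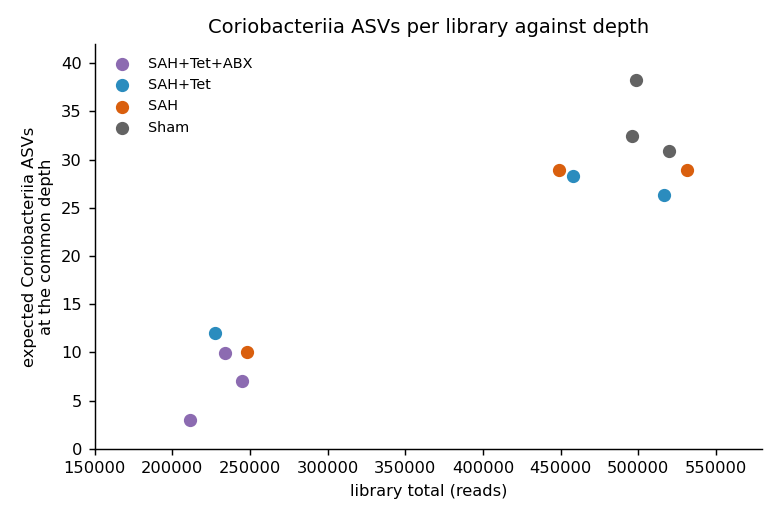
Expected number of Coriobacteriia ASVs at a common depth of 211450 reads (vertical axis) against the library total in reads (horizontal axis), one point for each library, coloured by group. SAH+Tet 3 and SAH 1 lie near the SAH+Tet+ABX libraries at 10.0 to 12.0 ASVs, apart from the other libraries of their groups.

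The rest of the phylum varied more than the class. Actinobacteriota other than Coriobacteriia held 0.112%, 1.81% and 0.711% of reads in SAH+Tet+ABX, 7.78%, 11.0% and 0.0528% in SAH+Tet, 0.186%, 11.9% and 10.8% in SAH, and 0.712%, 0.422% and 0.273% in Sham. These shares spanned a far wider range than those of Coriobacteriia, and the low SAH+Tet and SAH libraries were again those of the lower depth class. An exact permutation test of the log ratio of Coriobacteriia to the rest gave p = 0.462 over the 4 groups. It ranged from 0.0731 without SAH+Tet 3 to 0.636 without SAH 2 when a library was left out.

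A list of 10 genera outside the class known for bile acid, sterol or polyphenol metabolism was set beside the members, and all 10 were found. EdgeR called 3 of 10 in SAH+Tet+ABX against SAH+Tet, against 37.2% of all genera. Parabacteroides, which hydrolyses conjugated bile acids, fell to 0%, 0% and 0.000817% in SAH+Tet+ABX, against 0.0836%, 0.0813% and 0.0365% in SAH+Tet (adjusted p = 0.00223). The SAH+Tet+ABX value rests on 2 reads in all, so no fold is given. Flavonifractor, which degrades flavonoids such as quercetin, was at 0.0733%, 0.222% and 0.428% in SAH+Tet+ABX and had 0 reads in the other 9 libraries. It met the count minimum only through SAH+Tet+ABX, so its call, 1 of the 3, is not given as support. Blautia, whose species deglycosylate and demethylate polyphenols, was at 0.507%, 1.24% and 4.89% in SAH+Tet+ABX, against 0.138%, 0.0513% and 0.0832% in SAH+Tet (log2 fold change 4.80, adjusted p = 0.0193). The call for Blautia was lost without SAH+Tet+ABX 3, without SAH+Tet 1, without SAH+Tet 2, with depth class as a block and within the lower depth class. That for Parabacteroides held in 14 of 14 alternatives. In SAH+Tet against SAH and in SAH against Sham, edgeR called 0 of 9 tested genera of the list, against 0% of all genera.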

How the data were processed

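Faecal DNA of 12 rat libraries, 3 in each of 4 groups, was amplified for part of the 16S rRNA gene and sequenced, per the labels' protocols. The authors deposited unscaled read counts per ASV with a lineage, and the per-sample tables were identical to the series table for 12 of 12 libraries. The submitters' processing notes name fastp and cutadapt. The sources used here do not state the denoiser, primers or taxonomy database, and the names and the number of ASVs hold for that pipeline only. No ASV of the class had a count of 1, while the table held 369 such counts.

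From these counts, 2 Eukaryota ASVs were removed, shares were taken of each library total and reads were summed by genus, or by the deepest named rank. Shares are relative: no bacterial load was available, so a lower share cannot be told from an increase of other taxa. EdgeR 4.0.16 in R 4.3.3 (quasi-likelihood test, TMM scaling, features with 10 or more reads in 3 or more of the fitted libraries, Benjamini-Hochberg over all features tested, threshold 0.05) compared pairs of groups, on all 12 libraries for SAH+Tet+ABX against SAH+Tet and on the 9 without antibiotics otherwise. The SE of a log2 fold change is its size divided by the square root of F. Folds against a group at 0 use 3 reads per library in that group. Exact permutation tests used scipy 1.17.1 and numpy 2.4.6 over all 15400 arrangements of 4 groups of 3. Expected ASVs at 211450 reads are hypergeometric expectations. Both tests were tested on simulated data.

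Alternatives were DESeq2 1.42.0, limma 3.58.1 on centred log-ratio values with 0.5 reads added, other scalings, no filter, depth class or replicate number as a block, within-class values, only the groups compared, other added shares and each library left out. Genus-level features with a mean share of at least 0.005% or past the threshold are given for every library, as are the 8 ASVs of highest mean share and those called by edgeR; other names are marked as chosen after their values were seen or are given by range. The members and lists were chosen with earlier results of these data known.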

Additional observations from a re-analysis of the deposited data

How the results depend on the processing

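Over all alternatives, 762 values of single features and 174 of the summary results kept their direction and side of the threshold, or their size. A count that changed only slightly was also taken as kept. The class share tests of pairs of groups could not pass the threshold, so their side of it was fixed in advance. Of the other summary results, 28 counts moved, 3 values changed sign and 5 fell short of the threshold. Single features fell short of the threshold in 50 cases, newly passed it in 13 and changed sign in 21, and the cause was not tested. EdgeR's count of called genera was 0 for SAH against Sham, and 1 with DESeq2, with limma and with depth class as a block. For SAH+Tet against SAH it was 0, and 2 with DESeq2 and 1 with limma. For SAH+Tet+ABX against SAH+Tet it was 3, and between 1 and 3 when a library was left out (1 without SAH+Tet+ABX 2 and without SAH+Tet 1). It was 1 in the fit of only these groups, where only 3 members met the count minimum, unnamed Coriobacteriales and DNF00809 not among them. Within the lower depth class 3 members met it and SAH+Tet 3 stood alone for its group, so no count is given. ASVs called were 0 for SAH against Sham, with 3 by DESeq2, 2 by limma and 3 in the fit of only these groups, and 0 for SAH+Tet against SAH, with 4 by DESeq2 and 1 by limma. In both of these comparisons Collinsella, which met the count minimum only through SAH, is in each genus and ASV count above 0. In the fit of only SAH and Sham, the other ASVs called were Enterorhabdus ASV 8 and unnamed Eggerthellaceae ASV 3. With 0 reads in SAH, these ASVs could meet the count minimum there only through Sham. ASVs called for SAH+Tet+ABX against SAH+Tet were 4, 1 by limma (Enterorhabdus ASV 5), 0 with no filter and between 0 and 9 when a library was left out. Within the lower depth class 2 ASVs of the class met the count minimum, and no count is given. Over the 4 groups, 1 genus passed, 0 without SAH+Tet+ABX and 2 without SAH 1 (range 1 to 2), where DNF00809 passed too, and 1 family passed, 0 without SAH+Tet+ABX and 2 without SAH+Tet 3 (range 1 to 2). The richness p was 0.229 without SAH+Tet+ABX and between 0.00136 and 0.0804 when a library was left out.

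Replicate numbers did not pair the libraries: the correlation of same-numbered libraries' deviations ranged from -0.595 to 0.563 in SAH+Tet against SAH, and was below 0.1 for some number in each comparison. With the replicate number as a block, edgeR called 0 ASVs and 2 genera in SAH+Tet+ABX against SAH+Tet, where the calls for DNF00809 (adjusted p = 0.0807), Blautia (0.0578) and Flavonifractor (0.0679) were lost, 0 genera and 0 families passed over the 4 groups, the richness p was 0.0556, and Adlercreutzia ASV 1 in SAH+Tet against SAH turned to a log2 fold change of 0.19.

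Some differences that were not called changed sign. The class log10 share for SAH+Tet against SAH ranged from -0.194 to 0.0050 when a library was left out (0.0050 without SAH 3). For SAH+Tet+ABX against SAH+Tet it ranged from -0.152 to 0.0501 (0.0501 without SAH+Tet+ABX 1) and was 0.0157 within the lower depth class. In limma the log2 differences were -0.041 for Adlercreutzia, -0.26 for unnamed Coriobacteriales, 0.22 for Enterorhabdus ASV 2 and 0.029 for Enterorhabdus ASV 1 in SAH against Sham. They were 0.63 for DNF00809 and 1.02 for Adlercreutzia ASV 1 in SAH+Tet against SAH, and 1.29 for Enterorhabdus and 0.78 for Coriobacteriaceae UCG-002 ASV 1 in SAH+Tet+ABX against SAH+Tet. Library-size scaling gave -0.015 for Enterorhabdus ASV 3 in SAH against Sham and 0.067 for Coriobacteriaceae UCG-002 ASV 1 in SAH+Tet against SAH, and the higher depth class alone gave -0.48 for Enterorhabdus ASV 1 there. With a library left out, values in SAH against Sham ranged from -1.07 to 0.059 for DNF00809 and from -0.66 to 1.499 for Enterorhabdus ASV 3. In SAH+Tet against SAH they ranged from -0.018 to 1.69 for unnamed Eggerthellaceae, from -0.059 to 1.24 for Enterorhabdus ASV 1, from -1.25 to 0.063 for Adlercreutzia ASV 1, from -1.57 to 0.35 for Coriobacteriaceae UCG-002 ASV 1 and from -0.56 to 0.052 for Enterorhabdus ASV 2.

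Precision is limited by 3 libraries a group and few reads per feature. The lower depth class holds all SAH+Tet+ABX libraries, so depth and antibiotics cannot be told apart there except through SAH+Tet 3. Collinsella and Flavonifractor had no fit without a library of the group that holds their reads, since they then fell under the count minimum.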
